A study of Mus musculus with 6 samples.

Results

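The endoplasmic reticulum (ER) chaperone Hyou1 and 9 further ER chaperones and folding enzymes (Hspa5, Hsp90b1, Calr, Canx, Pdia3, Pdia4, Pdia6, Dnajb11 and Sdf2l1) were followed across single mouse oocytes. They are 10 of the 25239 genes in the deposited count table, matched by gene symbol, and all 10 were found. Hyou1 was picked because its ratio of phthalate to water was low in these same libraries, and the other genes were chosen as its partners and neighbours in the ER. The difference of Hyou1 between the groups is therefore a description of how it was chosen and carries no test.

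Counts came from 6 Smart-seq3 libraries of germinal vesicle (GV) oocytes, 3 injected with water and 3 injected with a mixture of phthalate metabolites. Phthalates are plasticizers, and the metabolites are the compounds the body makes from them. The oocytes of both groups came from female CD-1 mice, an outbred stock, of 4 to 6 weeks of age, and were injected while still inside the cumulus cells and then kept in maturation medium with follicle-stimulating hormone and serum before collection. The labels give neither the dose nor the make-up of the mixture, and they name no animal or culture for any oocyte, so a group is treated as 1 sample, and no difference was tested against the spread between animals. The comparison asks how the injected mixture affects the transcripts of the oocyte. The titles number the libraries as oocytes and the text follows them, but the protocol leaves room for a single oocyte behind all libraries of a group, and the spread within a group may then be technical.

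Secreted and membrane proteins, among them the growth factors and egg-coat proteins an oocyte makes in large amounts, are folded in the ER. Hspa5 (BiP) is the ER member of the Hsp70 family and binds unfolded chains; Dnajb11 delivers clients to it, and Hyou1 exchanges its nucleotide and holds unfolded chains itself. Hsp90b1 (GRP94) is the ER member of the Hsp90 family, calreticulin (Calr) and calnexin (Canx) are lectins that hold glycoproteins together with the disulfide isomerase Pdia3, and Pdia4 and Pdia6 are further disulfide isomerases. When unfolded chains accumulate, the sensors Ern1, Eif2ak3 and Atf6 start the unfolded protein response, which raises transcription of many chaperone genes through promoter sites called ER stress response elements (ERSE).

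The ERSE reads CCAAT, any 9 bases and CCACG, and it was searched on both strands in RefSeq promoter windows of GRCm38.p6, each running from 250 bases before a gene's start to 50 bases after it. Windows were held for 9 of the 10 genes. Hyou1 was the missing entry. The element was in the windows of 5 of these 9 genes (Hspa5, Hsp90b1, Calr, Canx and Pdia6). It was in 39 of all 32851 windows (0.119%), which belong to 37 of 27025 genes (0.137%). The genes were picked as ER chaperones, the kind of gene this element serves, so its share among them is a description and was not tested. The sites are printed below with 15 bases on either side, 5′ to 3′ on the strand of the gene. Capitals mark the fixed letters of the element, which reads CGTGG, 9 bases and ATTGG where it lies on the opposite strand.
Hspa5, chr2:34772010-34772058, plus strand: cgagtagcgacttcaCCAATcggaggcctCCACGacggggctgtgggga
Hsp90b1 distal, chr10:86705623-86705671, minus strand: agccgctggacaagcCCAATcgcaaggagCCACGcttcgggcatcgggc
Hsp90b1 proximal, chr10:86705518-86705566, minus strand: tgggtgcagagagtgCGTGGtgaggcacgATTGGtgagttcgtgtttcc
Calr, chr8:84847060-84847108, minus strand: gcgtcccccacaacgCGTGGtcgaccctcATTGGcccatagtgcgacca
Canx, chr11:50325785-50325833, minus strand: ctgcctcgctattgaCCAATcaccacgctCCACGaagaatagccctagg
Pdia6, chr12:17266476-17266524, plus strand: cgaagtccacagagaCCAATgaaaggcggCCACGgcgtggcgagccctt

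The sites ended 46 bases before the start of Hspa5, 79 before that of Pdia6, 126 before that of Canx, 143 before that of Calr, and 193 and 88 before that of Hsp90b1. A second form of the element (ERSE-II: ATTGG, any 1 base and CCACG) was found in 12 of the 32851 windows, and 1 of them was the window of Dnajb11, where it lay after the start. Another motif of this response, TGACGTGG, was in 0 of the 9 windows and in 222 of all windows (0.676%), or 193 of 27025 genes (0.714%). The shorter CCAAT, which is part of the ERSE, was in all 9 windows and in 37.4% of all windows, or 41.1% of genes. A match describes the letters of a window and does not show that a factor binds there.

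Libraries held between 252267 and 300917 gene counts, and 4644 genes passed a filter on low counts (edgeR's filterByExpr, minimum count 10). All 14 oocyte markers had counts, with Gdf9 between 2184 and 3296 per library, so the oocyte label held. Of 20 cumulus and granulosa markers 11 were at 0 in every library, among them Amh, Foxl2 and Gja1, and the list summed to 13 to 39 counts per water oocyte and 10 to 21 per phthalate oocyte, most of them from Nr5a2. Of 4 theca markers 3 were at 0, with 0 counts after water injection and 0 to 4 per phthalate oocyte, and all 4 blood markers were at 0. ERCC spike-in counts ranged from 292 to 753 per library, while gene counts per spike-in count ran from 358 to 907 with water and from 569 to 942 with phthalate; scaling to them moved the median log2 ratio of all genes by over 0.1, to 0.12. Values below are CPM, counts per 1000000 of a library's total after scaling by edgeR's TMM factors, unless a count is named, and a ratio is the log2 of phthalate over water from counts summed over oocytes, with its 95% exact interval. The interval covers counting error only; PCR copies are not independent molecules, and 69.9% of counts from 1 to 20 were even, so some intervals are also given on counts halved to read pairs.

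Hyou1, at chr9:44379490-44392369 (GRCm38), was lower in every phthalate oocyte than in any water oocyte. It had 26, 41 and 37 counts in the libraries of water oocytes 1 to 3, and 16, 15 and 9 in those of phthalate oocytes 1 to 3. In CPM the water oocytes had 93.5, 138 and 130 and the phthalate oocytes 61.8, 49.7 and 35.02. The highest phthalate value lay below the lowest water value, while under spike-in scaling the groups overlapped. Summed, 104 counts stood against 40, a log2 ratio of -1.31 (-1.87 to -0.77), which is 40.4% of the water level. With the counts halved to read pairs the interval was -2.13 to -0.54. No other gene of the RefSeq table overlaps Hyou1, so its reads are not shared with an annotated neighbour.

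In GRCm38 the other genes lie at chr2:34772090-34776529 (Hspa5), chr10:86690841-86705444 (Hsp90b1), chr8:84842088-84846931 (Calr), chr11:50293957-50325673 (Canx), chr2:121413902-121438687 (Pdia3), chr6:47796141-47813512 (Pdia4), chr12:17266589-17284785 (Pdia6), chr16:22857845-22879634 (Dnajb11) and chr16:17130138-17132383 (Sdf2l1).

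In the order of the 2784 genes whose counts averaged 20 or more, the ratio of Hyou1 was at place 3 from the lowest. The neighbours in that order were Bfsp1 (-2.17) and Gtf3c1 (-1.32) below it, and Cdk5 and Slc44a2 (both -1.24) above it. Over these 2784 genes 90% of ratios lay between -0.54 and 0.54.

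**Figure D1:**
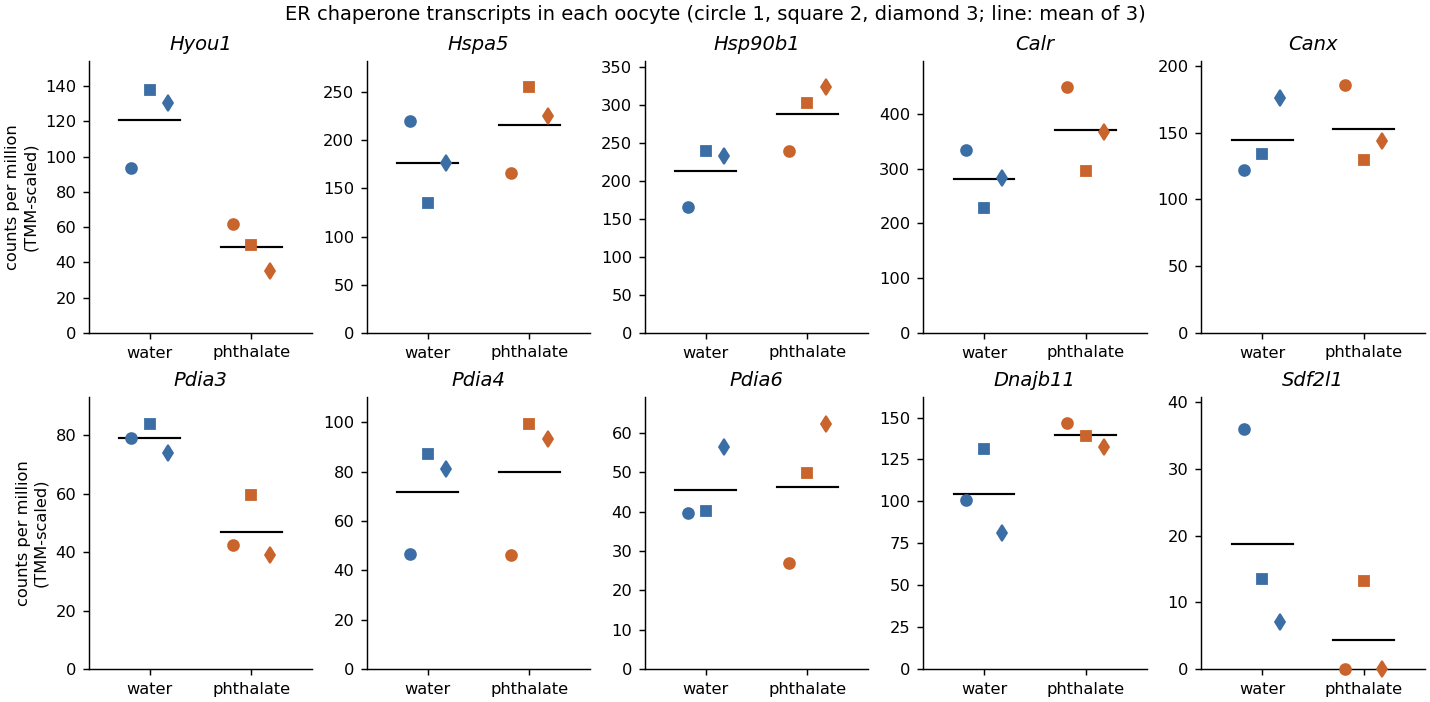
CPM (TMM-scaled, y axis from 0, own scale in each panel) of the 10 genes in water oocytes (blue) and phthalate oocytes (orange), with the symbol giving the oocyte number and the line the mean of 3. For Hyou1 and Pdia3 all phthalate points lie below all water points, for Hsp90b1 and Dnajb11 all lie above, and for the other 6 genes the points overlap.

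Hspa5, the Hsp70 that Hyou1 serves, had a ratio above 0 with overlapping groups. It had 61, 40 and 50 counts after water injection and 43, 77 and 58 after phthalate injection (219, 134 and 176 CPM against 166, 255 and 226). The groups overlapped, since phthalate oocyte 1 lay below 2 of the water oocytes. Its ratio was 0.31 (-0.012 to 0.63), an interval that includes 0. Rabepk overlaps Hspa5 in the RefSeq table and had 16 counts in all 6 libraries together.

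Dnajb11, the J-domain co-chaperone of Hspa5, had 28, 39 and 23 counts after water injection and 38, 42 and 34 after phthalate injection. In CPM these were 101, 131 and 81.1 against 147, 139 and 132, so the ranges were separated by a narrow gap (131 to 132 CPM). The ratio was 0.41 (0.0018 to 0.83), and 0.62 without water oocyte 2. With libraries scaled to total counts the groups overlapped for Dnajb11, and on read pairs its interval was -0.18 to 1.01.

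Hsp90b1 was also higher after phthalate injection. Its counts were 46, 71 and 66 after water injection and 62, 91 and 83 after phthalate injection, or 165, 238 and 233 CPM against 240, 302 and 323. The groups stood apart by the narrow gap between 238 and 240 CPM, and with DESeq2's size factors they overlapped. The ratio was 0.44 (0.15 to 0.73). Water oocyte 1 was the lowest of the 6, and without it the ratio was 0.30.

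Calr had the highest level per length of the 10 genes. It had 93, 68 and 80 counts after water injection and 116, 89 and 94 after phthalate injection (335, 228 and 282 CPM against 448, 295 and 366). The groups overlapped, with phthalate oocyte 2 below water oocyte 1. The ratio of Calr was 0.38 (0.13 to 0.63), and it ranged from 0.23 to 0.54 when each oocyte was left out in turn. Its membrane-bound relative Canx had 34, 40 and 50 counts against 48, 39 and 37, with 124 counts in each group sum. The ratio of Canx was 0.072 (-0.30 to 0.44), and its sign turned without water oocyte 1 (-0.024) or without phthalate oocyte 1 (-0.082).

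Pdia3, which works with these lectins, was the other gene with no overlap in the direction of Hyou1. It had 22, 25 and 21 counts after water injection and 11, 18 and 10 after phthalate injection, or 79.1, 84.0 and 74.0 CPM against 42.5, 59.7 and 38.9. The 3 water oocytes lay within 1.13-fold of each other, and every phthalate oocyte lay below them. The ratio of Pdia3 was -0.73 (-1.34 to -0.14). On read pairs the interval was -1.61 to 0.11 and included 0, and the ratio was -0.95 without phthalate oocyte 2. Catsper2, which overlaps Pdia3, had 4 counts in all.

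The other disulfide isomerases overlapped between the groups. Pdia4 had 13, 26 and 23 counts after water injection and 12, 30 and 24 after phthalate injection, so oocyte 1 was the lowest in each group. Its ratio was 0.16 (-0.36 to 0.69), and the sign turned without water oocyte 1 (-0.057) or phthalate oocyte 2 (-0.041). Pdia6 had 11, 12 and 16 counts against 7, 15 and 16, with a ratio of 0.035 (-0.65 to 0.72). The sign of the ratio of Pdia6 turned in 4 of the 6 cases in which an oocyte was left out, and with 39 and 38 counts per group its interval spans changes in either direction.

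Sdf2l1, which forms a complex with Dnajb11, was the only 1 of the 10 genes that did not pass the filter. It had 10, 4 and 2 counts after water injection and 0, 4 and 0 after phthalate injection. A count of 0 allows up to 3 counts, or 11.6 CPM in phthalate oocyte 1 and 11.7 in phthalate oocyte 3, above the 7.05 CPM of water oocyte 3. The groups overlapped. Its ratio was -1.93 (-3.97 to -0.30) from 16 and 4 counts, and on read pairs the interval included 0. Of the 16 water counts 10 came from water oocyte 1, and without that oocyte the ratio was -1.07.

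**Figure D2:**
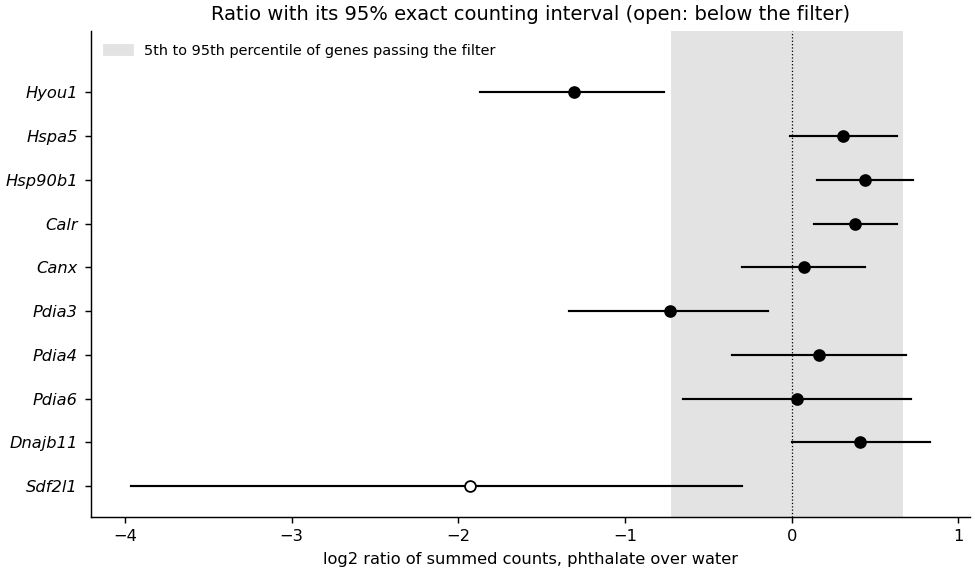
Log2 ratio of phthalate over water (x axis) for each of the 10 genes with its 95% exact counting interval, over a grey band from the 5th to the 95th percentile of the 4644 genes that passed the filter (-0.72 to 0.66). Hyou1, chosen for its low ratio, lies at -1.31, Pdia3 lies at its lower edge, and Sdf2l1 (open circle) is below the filter and has the widest interval.

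Of the 9 genes that passed the filter, 2 (Hyou1 and Pdia3) were lower by at least 1.5-fold in the phthalate group and 0 were higher by that size. Over the 4644 genes 8.14% were lower and 6.96% higher by at least 1.5-fold. With spike-in scaling these shares were 5.19% and 10.4%, with the same 2 genes past the limit, and without water oocyte 2 Dnajb11 was also past it, on the higher side. No overlap between the oocytes of the groups was found for 2 of the 9 on the lower side and for 2 on the higher side (Hsp90b1 and Dnajb11), against 5.00% and 5.15% of the 4644 genes. With spike-in scaling 0 of the 9 were free of overlap in either direction, where 0.603% of all genes were so on the lower side and 1.98% on the higher side. Without phthalate oocyte 1 the count on the higher side was 4, with Hspa5 and Pdia4 added, beside 9.91% of all genes, and without phthalate oocyte 3 it was 1, beside 12.1%. Since Hyou1 was chosen on this contrast, and the others were chosen around it, nothing is read from these shares. Ratios lay above 0 for 7 of the 9 genes (51.2% of all 4644) and below 0 for Hyou1 and Pdia3 (48.8%), and this split of 7 to 2 was the same under every scaling tried. The median ratio was 0.16, against 0.0089 for all 4644 genes. Without water oocyte 1 the median was -0.024, with 5 ratios below 0 and 4 above.

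Taken as a set, the 10 genes held a slightly larger share of the counts after phthalate injection. They took 0.128%, 0.122% and 0.130% of all gene counts of water oocytes 1 to 3, against 0.140%, 0.142% and 0.133% for phthalate oocytes 1 to 3. Each phthalate value lay above each water value. Summed, 1078 of 854185 counts stood against 1138 of 822225, or 0.126% (0.119 to 0.134, exact binomial) against 0.138% (0.130 to 0.147), and these 2 intervals overlapped. The log2 ratio of the shares was 0.13 (0.012 to 0.25, and -0.039 to 0.31 on read pairs), and the genes with the most counts, Calr, Hsp90b1 and Hspa5, all had ratios above 0.

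The counts of Hyou1 relative to the other 9 genes do not depend on how libraries are scaled. They come from the libraries in which Hyou1 was picked for its low ratio, so they are a description only. For each 1000 counts of the other 9 genes, Hyou1 had 81.8, 126 and 112 counts after water injection and 47.5, 37.0 and 25.3 after phthalate injection. The groups did not overlap. In the sums the values were 107 (86.4 to 131) and 36.4 (25.9 to 49.9), a log2 ratio of -1.55 (-2.13 to -0.995). Leaving out each oocyte in turn gave -1.76 to -1.35. Measured the same way, Pdia3 had 68.3, 73.3 and 60.5 counts per 1000 counts of the other 9 after water injection and 32.2, 44.8 and 28.2 after phthalate injection, again without overlap, while the remaining 8 genes overlapped. Hsp90b1 and Dnajb11, which stood apart in CPM, were among those 8.

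**Figure D3:**
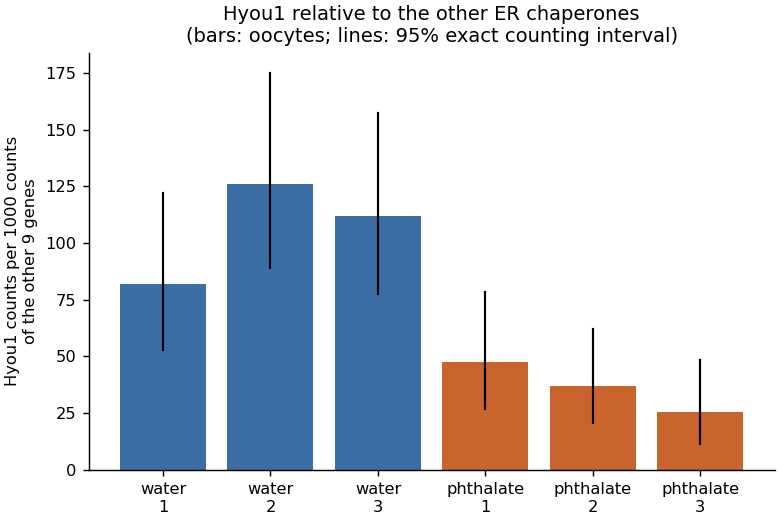
Counts of Hyou1 per 1000 counts of the other 9 genes (y axis, from 0) as a bar for each oocyte, with the 95% exact counting interval as a line. The water oocytes range from 81.8 to 126 and the phthalate oocytes from 25.3 to 47.5, and 3 pairs of intervals overlap between the groups: water oocyte 1 with phthalate oocytes 1 and 2, and water oocyte 3 with phthalate oocyte 1.

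Levels can be compared between genes only per length, here as CPM per kilobase of the longest GENCODE M21 transcript. In the water oocytes the mean level was 129 for Calr, 65.9 for Hsp90b1, 48.1 for Hspa5, 41.5 for Dnajb11, 33.7 for Canx, 29.9 for Pdia4, 28.5 for Pdia3, 24.5 for Hyou1, 20.9 for Pdia6 and 16.99 for Sdf2l1. The span from the first to the last was 7.59-fold. The order below Calr depends on the length used: with the median transcript length Hspa5, Canx and Hsp90b1 followed Calr after water injection, Dnajb11 went from place 4 to 7 and Pdia6 from 9 to 6, and the span was 18.5-fold. By longest transcript, only Calr stood clear of the next gene, with 105 to 153 against 51.4 to 74.0 for Hsp90b1. Every later pair of neighbours in that order overlapped between oocytes. Calr was thus at percentile 88.0 of the 4596 filtered genes with a transcript length, Hsp90b1 at 76.1, Hspa5 at 68.3 and Hyou1 at 46.2.

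In the phthalate oocytes the first 6 places by longest transcript were the same. The mean level per kilobase was 169 for Calr, 89.4 for Hsp90b1, 58.7 for Hspa5, 55.5 for Dnajb11, 35.7 for Canx and 33.2 for Pdia4. Pdia6 followed at 21.3, ahead of Pdia3 at 16.98 and Hyou1 at 9.92, and Sdf2l1 was last at 3.99. Hyou1 was at percentile 14.2 and Pdia3 at 31.8, from 52.0 after water injection. The oocytes of Pdia3 (14.0 to 21.5) all lay above those of Hyou1 (7.11 to 12.6).

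**Figure D4:**
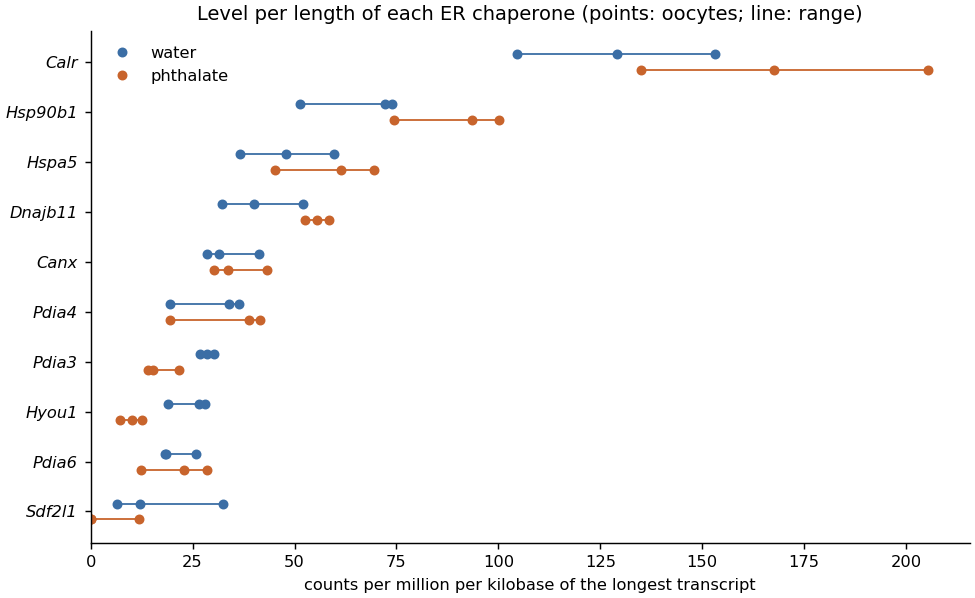
Level of each gene in CPM per kilobase of its longest transcript (x axis, from 0) in water oocytes (blue) and phthalate oocytes (orange), with 1 point per oocyte and a line over their range. Calr is clear of all others in both groups, and the phthalate points of Hyou1 (7.11 to 12.6) lie left of its water points (19.0 to 28.0).

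Hsp90b1 and Hspa5 had lower levels per length than the abundant cytosolic members of their families. Hsp90aa1, a cytosolic relative of Hsp90b1, had a mean of 2940 CPM per kilobase after water injection and 3119 after phthalate injection, against 65.9 and 89.4 for Hsp90b1. Hspa8, the cytosolic relative of Hspa5, had 399 and 443, against 48.1 and 58.7. The closest cytosolic relatives of Hyou1, the Hsp110 proteins Hspa4, Hspa4l and Hsph1, had 27.2, 4.68 and 72.6 CPM per kilobase after water injection. Their ratios were 0.15 (-0.24 to 0.54), -0.59 (-1.39 to 0.18) and -0.14 (-0.39 to 0.10), each with an interval that includes 0.

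Other genes of ER folding were taken in 6 lists of 107 genes, all present in the table, of which 49 passed the filter, and a list of 22 cytosolic and mitochondrial chaperones was set beside them. Of the 49 ER genes, 5 (10.2%) were lower and 2 (4.08%) higher by at least 1.5-fold in the phthalate group, beside 8.14% and 6.96% of all genes. Their median ratio was 0.011, beside 0.0089 for all genes. Oocyte values did not overlap between the groups for 3 of the 49 (6.12%) on the lower side and 3 (6.12%) on the higher side, beside 5.00% and 5.15% of all genes. Some list genes have an interval printed below that excludes 0 on full counts. Of these, Sil1, Ero1b, Srpr, Trap1, Stip1, Hspe1 and St13 had intervals that included 0 on counts halved to read pairs. The lists were chosen with earlier results of these libraries known.

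Among co-chaperones and exchange factors, 7 of 13 genes passed the filter, with a median ratio of -0.24. Ratios were below 0 for 4 of the 7. Sil1, the other nucleotide exchange factor of Hspa5, was the 1 gene of the list past 1.5-fold, on the lower side like Hyou1. Sil1 was named after its values were seen. It had 26, 17 and 29 counts after water injection and 18, 19 and 8 after phthalate injection, with a ratio of -0.61 (-1.18 to -0.049) and overlapping groups. Dnajc3, a J-domain co-chaperone of Hspa5 with the most counts in the list, had 105, 125 and 104 counts against 111, 158 and 130, with a ratio of 0.33 (0.12 to 0.54) and no overlap in CPM. Sdf2, the paralog of Sdf2l1, had 123 counts against 96 (-0.29, -0.69 to 0.11), Dnajc1 had 92 against 74 (-0.24, -0.70 to 0.22), and Dnajc10, named after its values were seen, had 45 against 30 (-0.51, -1.23 to 0.19).

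Among the other disulfide isomerases and ER oxidases, 6 of 20 genes passed the filter and their median ratio was 0.081. Erp29, a redox-inactive relative of the disulfide isomerases, was the gene past 1.5-fold on the higher side. Its counts were 46, 29 and 30 after water injection and 53, 55 and 47 after phthalate injection, with a ratio of 0.63 (0.27 to 1.01) and no overlap in CPM. On the lower side Ero1b (Ero1lb in the table), an oxidase that recharges disulfide isomerases, had 16, 12 and 26 counts against 8, 12 and 8. Its ratio was -0.88 (-1.59 to -0.19), also without overlap in CPM. The gap was narrow, from 39.8 to 40.3 CPM, with 12 counts in the oocyte on each side of it. Erp44, which retains Ero1 proteins in the ER, had 38 counts against 22 and a ratio of -0.72 (-1.54 to 0.078). Ero1b and Erp44 were named after their values were seen. P4hb, the founding member of the family, had 130 counts against 127 (0.038, -0.33 to 0.40), and Txndc5 had 167 against 173 (0.12, -0.19 to 0.44).

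The glycoprotein folding cycle, which contains the lectins' own partners, had 4 of 16 genes past the filter and a median ratio of 0.022, with 0 genes past 1.5-fold. Os9, a lectin that passes misfolded glycoproteins on for degradation, had 101, 107 and 93 counts against 84, 79 and 83. Its ratio was -0.22 (-0.47 to 0.029), and its groups did not overlap in CPM, on the lower side. The gap was narrow, from 325 to 328 CPM. Calr4, a relative of Calr, had 35, 48 and 40 counts against 14, 48 and 55, so the phthalate oocytes spread more widely than the difference between the group sums of 123 and 117. Lman1, a cargo receptor for leaving the ER, had 69 counts against 70. Clgn and Mogs were at 0 in all 6 libraries.

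Of the 16 unfolded protein response sensors and transcription factors, 5 passed the filter, with a median ratio of 0.072. Ddit3 (CHOP), a transcription factor induced by ER stress, was past 1.5-fold on the higher side. It had 36, 26 and 22 counts after water injection and 48, 50 and 34 after phthalate injection, which is 130, 87.3 and 77.6 CPM against 186, 166 and 132. The gap between the groups was small, from 130 to 132 CPM, and the ratio was 0.72 (0.32 to 1.14). Atf4, which acts upstream of Ddit3, had 159 counts against 134 and a ratio of -0.17 (-0.52 to 0.17). Ern1, a sensor in the ER membrane, had 145, 216 and 182 counts against 133, 195 and 307. Only phthalate oocyte 3 lay above the water range, and the ratio was 0.30 (0.13 to 0.47). The sensors Atf6 and Eif2ak3 did not pass the filter and were named after their values were seen. Atf6 had 21 counts against 33 (0.72, -0.11 to 1.59), with a gap from 28.2 to 31.1 CPM between 8 counts on each side. Eif2ak3 had 10 counts against 8 (-0.25, -1.79 to 1.24). Xbp1, the transcript that Ern1 splices, had 2 counts in all, and Trib3 and Chac1, targets of Atf4 and Ddit3, had 0 counts in every library.

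ER-associated degradation had 11 of 20 genes past the filter, a median ratio of 0.058 and 0 genes past 1.5-fold. Creld2, an ER protein induced by stress with the most counts in the list, had 134, 106 and 118 counts against 113, 122 and 121, a ratio of 0.064 (-0.15 to 0.28). Ubxn4 had 231 counts against 193 (-0.19, -0.47 to 0.095) and Derl3 had 87 against 92 (0.15, -0.29 to 0.59). Herpud1, a stress-induced gene, had 1 count in all 6 libraries.

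For the translocon and oligosaccharyltransferase, which bring chains into the ER and add sugars to them, 16 of 22 genes passed the filter and the median ratio was -0.071. The genes past 1.5-fold were Srpr, a subunit of the signal recognition particle receptor, with 56 counts against 32, no overlap in CPM (-0.74, -1.41 to -0.083), and Ssr3, with 42 against 25 (-0.68, -1.45 to 0.072). They were named after their values were seen. Sec61g, with the most counts in the list, had 328 counts against 315 (0.014, -0.21 to 0.24), while the catalytic subunits Stt3a and Stt3b had ratios of -0.31 (-0.85 to 0.23) and 0.37 (-0.023 to 0.76). Sec11c, a signal peptidase subunit, had a ratio of -0.34 (-0.87 to 0.19).

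The 18 filtered cytosolic and mitochondrial chaperones had a median ratio of -0.056. On the lower side 2 of the 18 were past 1.5-fold and 4 did not overlap, beside 8.14% and 5.00% of all genes. The genes past 1.5-fold were Trap1, the mitochondrial Hsp90, with 26, 40 and 26 counts against 21, 15 and 19 (-0.67, -1.18 to -0.17), and Hspa4l. Trap1 did not overlap in CPM, nor did 3 further genes on the lower side, the Hsp90 co-chaperones Ahsa1 (-0.42, -0.67 to -0.17) and Stip1 (-0.35, -0.62 to -0.089) and the mitochondrial chaperonin subunit Hspe1 (-0.37, -0.73 to -0.011), which were named after their values were seen. On the higher side 0 were past 1.5-fold and 1 gene, Dnajb6, did not overlap, beside 6.96% and 5.15% of all genes. The gap of Dnajb6 was narrow, from 245 to 249 CPM. Dnajb6 was at 0.48 (0.20 to 0.76), the co-chaperone St13 at 0.47 (0.025 to 0.93) and Hsp90aa1, with 8318 counts against 8317, at 0.072 (0.028 to 0.12).

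**Figure D5:**
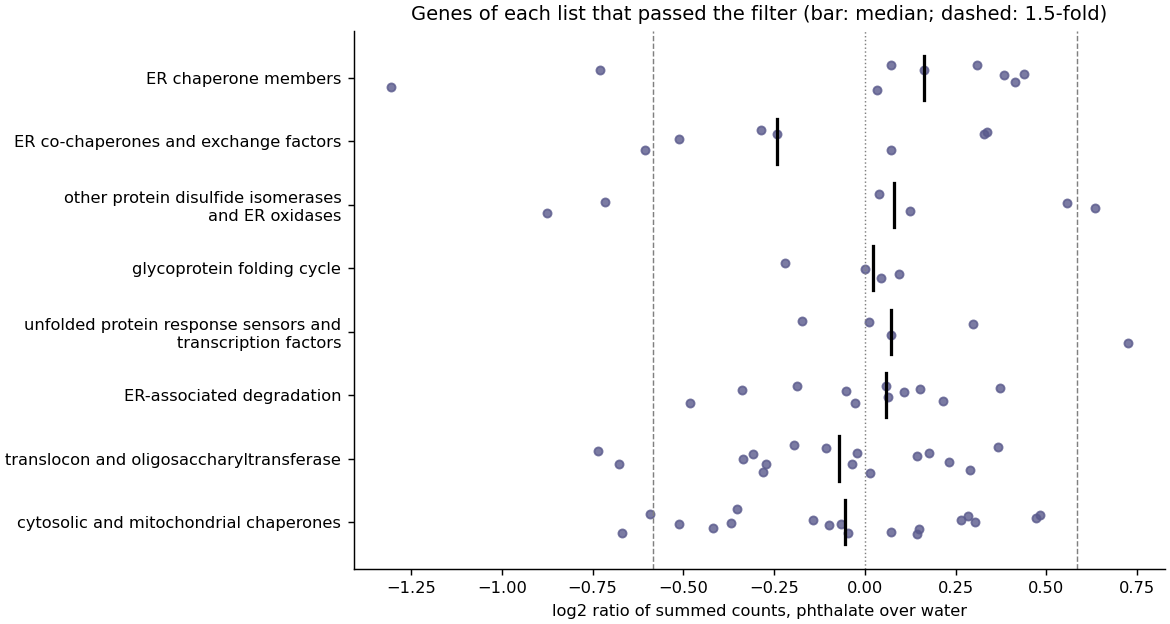
Log2 ratio of phthalate over water (x axis) of every gene that passed the filter in each list, with the median of a list as a bar and 1.5-fold as dashed lines. Hyou1 is the leftmost point of all lists at -1.31, Ddit3 is the rightmost at 0.72, and the medians lie between -0.24 and 0.16.

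The ERSE was present in promoter windows of 37 genes, of which 17 passed the filter. Of the 12 that are outside the set of 10, 8 had a ratio above 0 and 4 below, beside 51.2% and 48.8% of all genes, and their median was 0.051. By at least 1.5-fold 3 were lower, namely Ero1b, Xlr3c (-0.78) and Acacb (-1.13), and 0 were higher, beside 8.14% and 6.96% of all genes. Dnajc3, Creld2, Derl3 and Syvn1 belong to this group with ratios of 0.33, 0.064, 0.15 and 0.11. The 5 chaperone genes with printed sites had ratios from 0.035 for Pdia6 to 0.44 for Hsp90b1, and the interval was above 0 for Hsp90b1 and Calr and included 0 for Hspa5, Canx and Pdia6.

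Genes with values like those of Hyou1 are given as a description only, since Hyou1 was chosen on the contrast within these same libraries and its nearest genes are therefore low with phthalate too. Likeness was measured on log2(CPM + 1), centred on each gene, as the root-mean-square gap to Hyou1 over the 6 libraries, and it was computed for 2783 genes that averaged 20 or more counts. The 5 nearest were Pacrgl (0.246), the chromatin remodeller Srcap (0.263), the Polycomb protein Pcgf6 (0.269), Ralgapb (0.277) and the nucleoporin Nup153 (0.292), while the median over all genes was 0.785. Srcap had 104, 161 and 134 CPM after water injection and 65.7, 66.3 and 62.3 after phthalate injection. Pacrgl had 130, 185 and 173 CPM against 135, 76.2 and 50.6, so that unlike Hyou1 it overlapped between the groups. Pdia3, Pdia6 and Sdf2l1 of the 10 genes, and Sil1, averaged under 20 counts (17.8, 12.8, 3.33 and 19.5) and were not placed. Of the ER chaperones with enough counts, Canx was nearest to Hyou1, at place 991 (0.734), and Hspa5 was at place 2428 (0.954).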

How the data were processed

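The authors deposited 1 table of raw, whole-number counts by gene symbol, which also lists 92 ERCC spike-in RNAs. The submitters' processing notes name cutadapt, Trimmomatic, HISAT2 and DESeq2 and the build mm10 (GRCm38), without roles or versions. The counter, the annotation, the use of strand and the handling of molecular identifiers are not given in the sources used here. Columns headed WT and Phthalates were matched to the water and phthalate oocytes through the library names, the sample titles and the replicate number.

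Genes were filtered with filterByExpr (minimum count 10, minimum total 15) and scaled by TMM (edgeR 4.0.16, R 4.3.3). ERCC counts stayed out of totals. A ratio compares sums over oocytes, and uses no pseudocount; where a sum was 0, a floor of 3 counts stood in its place. Intervals are exact (Clopper-Pearson, 95%; SciPy 1.17.1). The ratio code was tested on simulated data. No test between groups was run, because the labels name no animal or culture.

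Even values made up 69.9% of counts from 1 to 20. Transcript lengths came from GENCODE M21, and gene positions and promoter windows from RefSeq GRCm38.p6. Symbols missing from the table were matched through RefSeq synonyms.

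The 10 genes, the lists and the 1.5-fold limit were chosen with earlier results of these data known. Named genes were these 10 and, in each list, the 3 with the largest ratio at a mean count of at least 20 and the one with the highest mean CPM; others were named after their values were seen, and 1 gene that the rule takes is not reported here.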

Additional observations from a re-analysis of the deposited data

How the results depend on the processing

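The log2 ratio of Hyou1 lay between -1.49 and -1.13 over 11 alternatives, which were other scalings (DESeq2 1.42.0 size factors, total counts, ERCC counts), no filter, means over oocytes and each oocyte left out. Hyou1 and Pdia3 were past 1.5-fold and lower under each of them. The number of genes without overlap on the higher side was 1 with DESeq2's size factors, 1 with total counts and 0 with ERCC scaling, where the lower side also had 0; with 1 oocyte left out it ranged from 1 to 4. The number past the limit on the higher side ranged from 0 to 1 with 1 oocyte left out. It was 3 at a looser limit of 0.32 on the log2 scale, and at 2-fold the lower side had 1 gene (Hyou1). The median ratio of the set ranged from -0.024 to 0.29. Without a filter 39.6% of 12804 genes were past 1.5-fold, against 15.1% of 4644, since many of the added genes have few counts. With the median transcript length in place of the longest, Hyou1 was at place 9 of 10 in the water oocytes instead of 8, Hsp90b1 at 4 instead of 2, Canx at 3 instead of 5, Dnajb11 at 7 instead of 4 and Pdia6 at 6 instead of 9; in the phthalate oocytes the first 6 were Calr, Hspa5, Hsp90b1, Canx, Dnajb11 and Pdia3. No paired analysis was possible because a group was treated here as 1 sample, so that no result comes from a test. At the depth of these libraries the ratios of Pdia6 and Sdf2l1 are the least certain.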
